A study of Mus musculus with 15 samples.

Results

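Day 3 after a single whole-body exposure to protons was compared with sham exposure in heart muscle cells of mice. The comparison rested on 3 arrays labelled day 3 after protons and 3 sham arrays, out of 15 arrays in the series. The day 3 mice were adult male C57Bl/6NT mice, 8 to 9 months old, that had received 90 cGy of 1 GeV protons over the whole body. The sham mice were of the same strain, sex and age and had received no dose: 2 of their arrays came from day 1 and 1 came from day 3. The other 9 arrays came from days 1, 5, 12 and 26 after the same proton dose, and they entered the fit to help estimate the spread. In every mouse the left ventricle was digested with collagenase and cardiomyocytes were selected by their tolerance of calcium, and the protocol states that a few inflammatory or endothelial cells could remain. Nothing in the labels ties an array to a mouse, so the p-values below measure the spread between these arrays, which may in part be technical. The number of arrays, 3 against 3, limits the precision of every value.

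Protons of this energy pass through the whole body and leave sparse ionisation along their tracks. Adult cardiomyocytes hardly divide, so a damaged cell is kept and repaired rather than replaced. Their state is read here from RNA, in which p53 targets report DNA damage, chaperones of the endoplasmic reticulum report the load of protein folding, and cyclic AMP signalling, calcium channels and fuel genes report how the cell is driven.

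Signals are log2 values per gene as deposited, from 12102 genes whose mean over the 15 arrays lay above the median of all probe sets. A further 7835 genes lay below that median and were not tested. A difference of 1 on this scale is a doubling of the signal. The labelled cell type was borne out by its markers: the cardiomyocyte genes Myh6, Tnnt2, Tnni3, Actc1, Myl2 and Atp2a2 stood at the 99.8th percentile of all probe sets or higher. Markers of other heart cells were present too. The endothelial genes Pecam1 and Cdh5 stood at the 89.4th and 92.2nd percentile, the fibroblast gene Dcn at the 99.1st, and the macrophage gene Lyz2 at the 97.4th. All 7 endothelial, 8 macrophage, 6 smooth muscle and pericyte, 4 mesothelial and 3 erythroid markers measured lay above the filter. So did 7 of 8 fibroblast, 4 of 6 neutrophil, 5 of 6 lymphocyte and 1 of 2 adipocyte markers. The markers below it were Tcf21, S100a8, Ngp, Ms4a1, Adipoq and Sox10, and the atrial gene Sln of the cardiomyocyte set.

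Replicate 3 of day 3 stood apart from replicates 1 and 2 in these markers. The mean signal of 7 endothelial markers was 7.72, 7.32 and 8.64 in day 3 replicates 1, 2 and 3, against 7.81, 8.23 and 7.84 in the sham arrays. The 8 macrophage markers had 5.78, 6.03 and 7.32 at day 3, against 6.64, 6.59 and 6.05 in sham. The 4 mesothelial markers had 6.71, 6.22 and 8.59 at day 3, against 6.87, 7.37 and 6.28 in sham. In all 3 sets replicate 3 lay above every sham array, and replicates 1 and 2 lay below every sham array in the endothelial and macrophage sets. Fibroblast markers (8) were also highest in replicate 3, at 7.57, against at most 7.01 in sham. Smooth muscle and pericyte markers (6) differed less, with 6.97 to 7.15 at day 3 and 7.06 to 7.45 in sham. For many gene groups that moved when replicate 3 was left out, counts and medians are therefore given both ways. In such a mixture fewer cells of a type and less RNA per cell cannot be told apart.

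**Figure D1:**
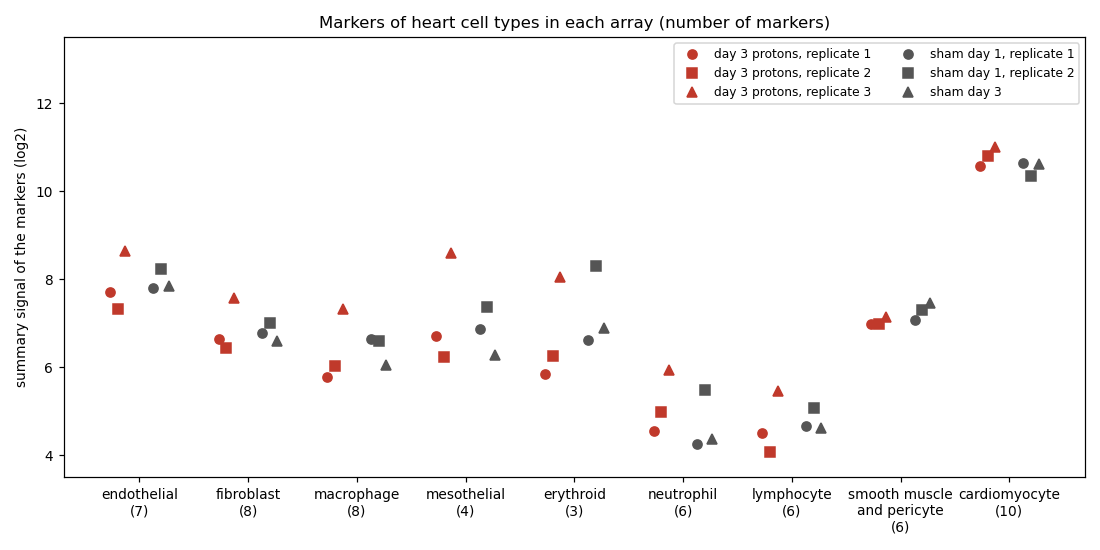
Mean log2 signal of the markers of each heart cell type (horizontal axis, number of markers in brackets) in each of the 6 arrays, with day 3 in red to the left of sham in grey and 1 symbol per array. Day 3 replicate 3 (red triangle) lies above the other day 3 arrays in endothelial, fibroblast, macrophage and mesothelial markers, at 8.64 for the endothelial set against 7.72 and 7.32.

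One gene passed the test. In a limma fit over 14 samples and 6 groups, with Benjamini-Hochberg adjustment over all 12102 genes, 1 gene had an adjusted p under 0.05 (0.00826% of those tested). At an unadjusted p under 0.05, 761 genes were higher (6.29%) and 311 were lower (2.57%). The 3 day 3 arrays all lay above the 3 sham arrays in 968 genes (8.0%) and all below them in 531 genes (4.39%). This lean toward higher genes depended on the scaling: after quantile normalization the counts were 845 higher and 732 lower, and with equal array medians they were 570 and 553. Without replicate 3, the arrays did not overlap in 1567 genes that were higher (12.9%) and in 1379 that were lower (11.4%). These shares are what the counts of each gene group below are read against. The gene lists were chosen with earlier results of these data known, so their counts are descriptions and not tests. When a score of endothelial, fibroblast and macrophage markers was added to the fit as a covariate, 112 genes passed (0.925%). Of these, 88 were higher at day 3 in the fit without the score.

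The share of higher genes grew with the span of the gene. Among genes whose annotated span reached at least 53019 bp, 11.0% had day 3 arrays above all sham arrays and the median difference was 0.06. Among genes of at most 8844 bp, the share was 4.27% and the median difference was −0.05. Most of this gap in the medians came from replicate 3, since without it they were 0.02 for the long genes and −0.00 for the short ones. The part of gene span in the group results below was not tested.

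The gene that rose was Pde7a, which encodes a phosphodiesterase that breaks down cyclic AMP. Its signal was 8.67, 8.57 and 8.73 in the day 3 arrays, against 7.80, 7.77 and 7.71 in the sham arrays, so the groups lay far apart relative to the spread within either. The difference was 0.90 ± 0.08 on the log2 scale (SE), a 1.87-fold higher signal, with an adjusted p of 0.000965. The call was lost in a fit of only the 6 arrays compared (adjusted p = 0.0688) and with the replicate number as a block (adjusted p = 0.129), although the labels do not show that the numbers pair the samples. Pde7a lies on mouse chromosome 3 from 19223108 to 19311322 (GRCm38.p6). Without replicate 3 the difference was 0.87. On days 1, 5, 12 and 26 after protons its differences from sham were 0.14, 0.53, 0.29 and 0.72, in that order. The 5 genes whose signal was most like that of Pde7a over the 14 samples were Rbm5 (Pearson r 0.922), D130007C19Rik (0.888), Ifrd1 (0.887), Tra2a (0.881) and Herpud1 (0.873). These correlations are descriptions over samples that share groups.

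**Figure D2:**
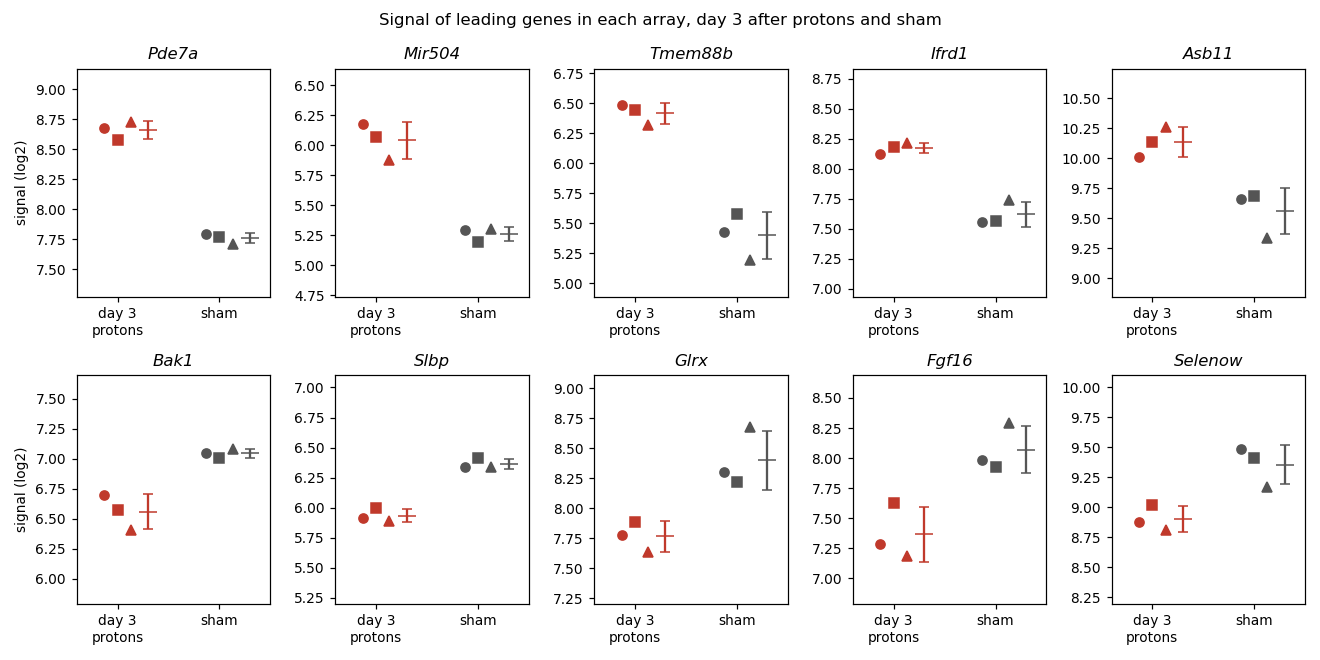
Log2 signal (vertical axis, the same span in every panel) of 10 leading genes in the 3 day 3 arrays in red and the 3 sham arrays in grey, with the mean and SD beside the points. Pde7a shows the tightest separation, 8.57 to 8.73 at day 3 and 7.71 to 7.80 in sham, and the bottom row holds genes with lower signal at day 3.

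No other member of the cyclic AMP pathway passed the test. The lists of phosphodiesterases and of cyclic AMP synthesis, protein kinase A and its anchors were centred near 0. Of 17 phosphodiesterases measured, 10 were higher, with a median of 0.01, and of 0.09 without replicate 3. Among them 4, Pde7a included, had day 3 arrays above all sham arrays and none had them below, against 8.0% and 4.39% of all genes. Pde4d, which shapes cyclic AMP near the ryanodine receptor, had 8.12, 8.13 and 8.24 at day 3, against 7.79, 8.05 and 7.76 in sham. Pde4b had 7.14, 7.04 and 7.03 at day 3 and 6.76, 6.73 and 6.94 in sham. The day 3 arrays of both genes lay just above the sham arrays, with differences of 0.29 and 0.26. Pde11a, which degrades both cyclic AMP and cyclic GMP, differed by 0.36. Pde3a and Pde4a, the other well known phosphodiesterases of heart muscle in the list, differed by 0.17 and −0.06 with overlapping arrays.

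On the producing side of the pathway, Adcy6 encodes one of the main adenylyl cyclases of the heart. It had 9.02, 9.06 and 8.99 at day 3, against 8.57, 8.80 and 8.55 in sham, a difference of 0.38 ± 0.09 (SE, adjusted p = 0.266). Grk5, the kinase that desensitises beta-adrenergic receptors, had 7.29, 7.67 and 7.47 at day 3 and 7.18, 7.23 and 6.68 in sham. Day 3 lay above sham in both, by a narrow margin for Grk5. Of 30 genes of cyclic AMP synthesis, protein kinase A and its anchors, 17 were higher, with a median of 0.03, and 4 had day 3 arrays above all sham arrays, among them the anchors Akap13 (difference 0.34) and Akap8 (0.24), and 1 had them below. Without replicate 3, 13 of the 30 were higher, 4 lay above and 5 below all sham arrays, and the median was −0.03. All 22 genes of the CREB family and its targets were higher at day 3, where 51.0% of all genes were, with a median of 0.14, and 17 of them were higher without replicate 3. The medians of this list from sham on days 1, 5, 12 and 26 were 0.15, 0.06, 0.19 and 0.19. The coactivator Ppargc1a, a CREB target that drives mitochondrial genes, had 10.72, 10.55 and 10.62 at day 3, against 10.37, 10.25 and 9.97 in sham, a difference of 0.43.

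Splicing and RNA-processing genes formed the group with the largest share of separated arrays. Like the others, this list was chosen with earlier results of these data known, so its counts are descriptions only. Of 41 measured, 39 were higher at day 3 and 19 had day 3 arrays above all sham arrays, where 8.0% of all genes did. At an unadjusted p under 0.05, 18 of the 41 were higher, and none passed the adjusted test. Their median difference was 0.19, and it ranged from 0.16 to 0.22 over the alternative settings. Without replicate 3 the median was 0.17, 39 of 41 were higher, and 22 had arrays above all sham arrays where 12.9% of all genes did. The median over all genes tested was 0.00 with replicate 3 and 0.01 without it.

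Tra2a encodes a splicing activator that binds exonic enhancers. It had 7.41, 7.31 and 7.37 at day 3, against 6.79, 6.85 and 6.98 in sham, a difference of 0.49 ± 0.09 (SE, adjusted p = 0.18). Rbm5, a spliceosome component that regulates exons of apoptosis genes, had 9.05, 9.02 and 9.21 at day 3, against 8.60, 8.61 and 8.68 in sham. In both genes the gap between the groups was wider than either group. Luc7l belongs to the U1 particle that recognises the start of an intron, and it had 6.93, 7.01 and 6.85 at day 3, against 6.36, 6.57 and 6.41 in sham. Its relative Luc7l3 differed by 0.44. The kinases Clk1 and Clk4 phosphorylate the SR proteins that select exons. Clk4 had 8.45, 8.50 and 8.66 at day 3, against 8.04, 8.09 and 8.02 in sham, and Clk1 differed by 0.46. Among the SR proteins themselves, Srsf1 had 8.09, 7.90 and 8.09 at day 3, against 7.54, 7.80 and 7.37 in sham, and Srsf11 differed by 0.34. Sf3b1, the branch point factor of the U2 particle, had 9.00, 9.06 and 9.15 at day 3, against 8.69, 8.69 and 8.78 in sham. Rbm20, which controls splicing of titin in heart muscle, differed by 0.31 ± 0.11 (SE), and Son, a scaffold of nuclear speckles, by 0.38 ± 0.15 (SE). The list was not uniform, since Tra2b and U2af1 differed by −0.07 and −0.12.

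**Figure D3:**
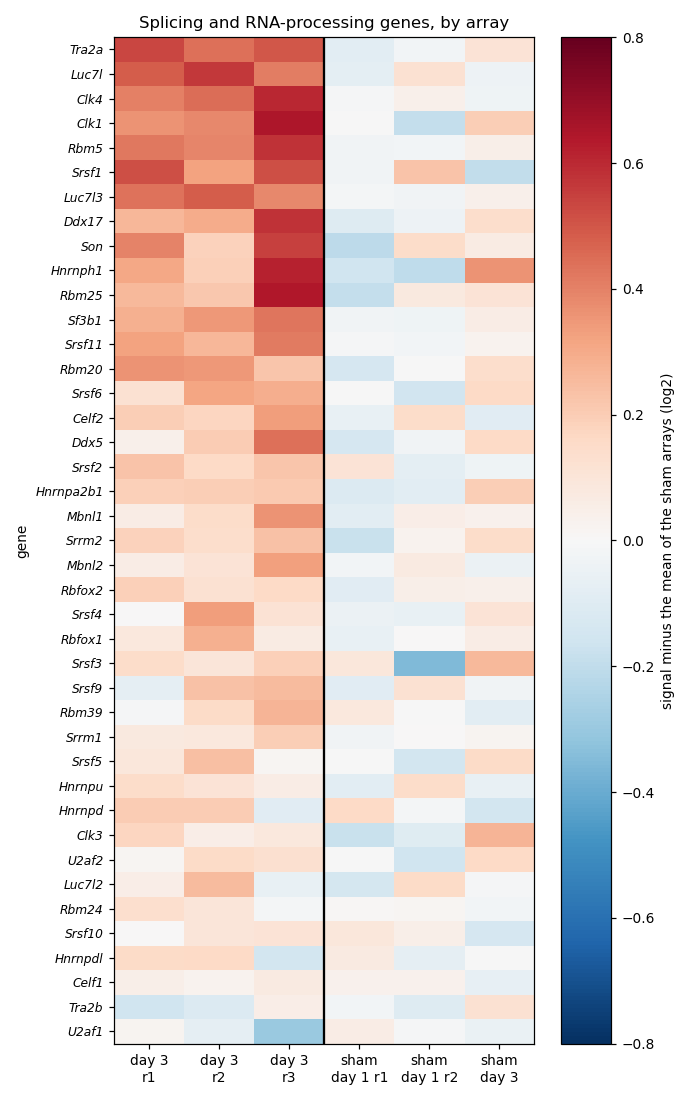
Signal of each of the 41 splicing and RNA-processing genes (rows, ordered by their difference) in the 6 arrays (columns, day 3 left of the line and sham right of it) as a difference from the mean of the sham arrays on the log2 scale. Red cells fill the day 3 columns for 39 of 41 genes by their mean, and replicate 3 is not the sole source of them.

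Nuclear and noncoding RNAs were also among the most separated genes. Malat1, an abundant RNA of nuclear speckles, had 11.26, 11.09 and 11.19 at day 3, against 10.29, 10.27 and 10.88 in sham, a difference of 0.70 ± 0.13 (SE, adjusted p = 0.18). The sham array of day 3 lay nearest to the irradiated arrays. D130007C19Rik, a transcript with no role given here, had 6.52, 6.33 and 6.62 at day 3, against 5.51, 5.58 and 5.74 in sham, and its adjusted p of 0.0503 missed the threshold. Of 40 small nucleolar and Cajal body RNAs, 5 had day 3 arrays above all sham arrays and 1 below, against 8.0% and 4.39% of all genes. Snora31, which guides pseudouridylation of ribosomal RNA, had 6.43, 6.39 and 6.22 at day 3, against 5.71, 5.83 and 6.06 in sham. Snora16a, Snord95, Snora73b and Snora3 differed by 0.53, 0.49, 0.51 and 0.58. Snora73b has a close copy in the genome, so its value is uncertain. Without replicate 3, 11 of the 40 had arrays above all sham arrays, against 12.9% of all genes, and the median difference was 0.20, against 0.01 with it. Averaged over the 40, the signal minus the sham mean was 0.279, 0.073 and −0.093 in day 3 replicates 1, 2 and 3.

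MicroRNA genes gave 9 of 69 measured with day 3 arrays above all sham arrays and none below, against 8.0% and 4.39% of all genes. Without replicate 3, 56 of the 69 were higher, against 6367 of all 12102 genes, and their median difference was 0.15, against 0.04 with it. Then 11 of the 69 lay above all sham arrays, where 12.9% of all genes did. Averaged over this list, the signal minus the sham mean was 0.395, −0.016 and −0.192 in day 3 replicates 1, 2 and 3, so only replicate 1 lay clearly above sham. A probe set of this array reports any transcript that spans the hairpin, so the mature microRNA itself was not measured. The mature sequences of the 5 with the smallest p are shown because the pairing rules of a microRNA rest on its seed. They are from RefSeq (GRCm38.p6), written 5′ to 3′ with the seed, bases 2 to 8, in capitals. No 2 of the 15 mature sequences of the 9 genes share a seed.
mmu-miR-504-5p: aGACCCUGgucugcacucuauc
mmu-miR-505-3p: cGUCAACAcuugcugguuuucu
mmu-miR-505-5p: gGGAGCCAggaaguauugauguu
mmu-miR-665-5p: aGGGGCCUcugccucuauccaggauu
mmu-miR-665-3p: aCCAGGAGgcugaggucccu
mmu-miR-195a-5p: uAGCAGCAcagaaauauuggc
mmu-miR-195a-3p: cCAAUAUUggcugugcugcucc
mmu-miR-7a-1-3p: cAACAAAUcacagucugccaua
mmu-miR-7a-5p: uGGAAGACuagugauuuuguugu

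Mir504 lies on chromosome X from 59097658 to 59097736 inside Fgf13, a modulator of sodium channels. It had 6.18, 6.07 and 5.88 at day 3, against 5.29, 5.20 and 5.30 in sham, a difference of 0.78 ± 0.11 (SE), and its adjusted p of 0.0503 missed the threshold. The day 3 arrays lay clear of the sham arrays, while the host gene Fgf13 had 7.82, 8.01 and 7.80 at day 3 and 7.86, 7.78 and 7.85 in sham. Mir505 had 6.22, 6.17 and 6.46 at day 3, against 5.47, 5.19 and 5.83 in sham. Mir665, in the imprinted cluster of chromosome 12, had 6.25, 6.16 and 6.53 at day 3, against 5.26, 5.42 and 5.89 in sham. Mir195a belongs to a family known for restraining the cell cycle in newborn heart, and it had 5.30, 5.64 and 5.31 at day 3, against 4.45, 4.89 and 4.92 in sham. The sham arrays of Mir195a all lay below the filter of 5.00. In Mir505, Mir665 and Mir195a the sham arrays spread over a wider range than the gap to day 3. Mir7-1 lies in an intron of Hnrnpk and differed by 0.62, while Hnrnpk differed by 0.04. Mir330, in Eml2, differed by 0.69, while Eml2 differed by 0.06. The hosts were looked up after the microRNA values were seen.

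The next genes by p after Pde7a, D130007C19Rik and Mir504 had varied roles. Tmem88b had 6.49, 6.44 and 6.32 at day 3, against 5.43, 5.58 and 5.19 in sham, a difference of 1.02 ± 0.15 (SE, adjusted p = 0.0541). Ifrd1, a stress-responsive coregulator of muscle genes, had 8.12, 8.18 and 8.21 at day 3, against 7.55, 7.56 and 7.74 in sham, with the same adjusted p of 0.0541. Both missed the threshold narrowly with arrays that lay well apart. Asb11, an adaptor of a ubiquitin ligase, had 10.01, 10.14 and 10.26 at day 3, against 9.66, 9.68 and 9.34 in sham. Ctnnal1, a relative of alpha-catenin, had 8.39, 8.49 and 8.61 at day 3, against 7.89, 7.90 and 7.41 in sham. The same sham array, that of day 3, was the lowest in both. Gdap10 differed by 0.96 and Rhobtb1 by 0.68. Zkscan3, a repressor of autophagy genes, had 7.12, 7.24 and 7.12 at day 3, against 6.68, 6.66 and 6.63 in sham. The 15 higher genes with the smallest p, which also hold Rbm5, Tra2a, Malat1, Mir505 and Luc7l, had adjusted p-values of 0.201 or less.

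Genes of glucose entry and glycogen handling included 7 with separated arrays, while the list as a whole was centred near 0. Of 35 genes of glycolysis and glycogen, 7 had day 3 arrays above all sham arrays and 1 below, against 8.0% and 4.39% of all genes. The median of the list was 0.02. Pfkfb2, the heart form of the enzyme that makes the activator of phosphofructokinase, had 9.23, 9.04 and 9.22 at day 3, against 8.44, 8.69 and 8.80 in sham, a difference of 0.52 ± 0.10 (SE, adjusted p = 0.22). Slc2a1, the insulin-independent glucose transporter, had 8.45, 8.42 and 8.35 at day 3, against 7.89, 8.09 and 8.07 in sham. The day 3 arrays of both lay above every sham array by more than their own range. Slc2a4, the insulin-responsive transporter, had 10.25, 10.12 and 10.14 at day 3 and 9.81, 10.04 and 9.96 in sham. Phka1, a regulatory subunit of phosphorylase kinase, had 9.19, 8.89 and 9.00 at day 3, against 8.48, 8.63 and 8.13 in sham. Ppp1r3a, which targets a phosphatase to glycogen, differed by 0.43. Hk2 and Gys1 were the other members that did not overlap. The member below sham was Pgam2, the muscle phosphoglycerate mutase, with 10.22, 10.14 and 10.07 at day 3 and 10.37, 10.24 and 10.53 in sham.

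Genes of fatty acid uptake and oxidation moved little as a group, with a median of −0.02 over 39 genes. Ppara, the nuclear receptor that controls those genes, had 8.48, 8.66 and 8.41 at day 3, against 8.20, 8.30 and 8.01 in sham, a difference of 0.35. Pdk4, which blocks the entry of pyruvate into the citric acid cycle, had 10.78, 11.18 and 10.79 at day 3 and 10.70, 10.75 and 10.52 in sham. Tfam, the mitochondrial DNA packaging factor, was lower, with 6.30, 6.30 and 6.46 at day 3 and 6.65, 6.83 and 6.46 in sham. In Tfam 1 array of each group all but met. Among 38 complex I genes 15 were higher, and among 45 genes of complexes II to V 13 were higher, with medians of −0.02 and −0.04. Without replicate 3 these counts were 22 of 38 and 19 of 45, and the medians were 0.01 and −0.01. The amino acid genes of muscle held 3 of 29 above all sham arrays, among them Slc38a3. This glutamine transporter had 9.90, 9.80 and 9.59 at day 3, against 9.30, 9.51 and 9.35 in sham, a difference of 0.38.

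Genes of protein folding and disposal in the endoplasmic reticulum were mostly higher. Of 24 chaperones and cofactors 21 were higher and 5 had day 3 arrays above all sham arrays, where 8.0% of all genes did. Of 20 genes of the degradation route 16 were higher and 5 lay above. Of 12 sensors and transcription factors of the unfolded protein response 11 were higher and 1 lay above, near the share of all genes. Without replicate 3 the median of the chaperones was 0.09, against 0.19 with it, and 19 of 24 were higher. The median of the sensors and transcription factors was 0.14 without replicate 3 and 0.21 with it. Of the degradation genes 13 were then higher, with 6 above and 2 below all sham arrays, against 12.9% and 11.4% of all genes. Herpud1, which recruits misfolded proteins to the proteasome, had 10.23, 10.43 and 10.47 at day 3, against 9.63, 10.08 and 9.68 in sham, a difference of 0.58 ± 0.12 (SE, adjusted p = 0.22). Selenos, another member of the degradation route, had 6.47, 6.39 and 6.43 at day 3, against 6.12, 5.70 and 5.77 in sham. The day 3 arrays of both lay above every sham array. Hsp90b1, the chaperone GRP94, had 9.62, 9.63 and 9.83 at day 3, against 9.21, 9.53 and 9.15 in sham. Hspa5, the chaperone BiP, had 10.38, 10.41 and 10.52 at day 3, against 10.18, 10.28 and 10.04 in sham. In both chaperones replicate 3 was the highest array and sham day 1 replicate 2 the nearest to day 3. Ern1, the sensor IRE1, differed by 0.30, and its splicing target Xbp1 had overlapping arrays and a difference of 0.21. Atf6, the sensor that is cut in the Golgi, differed by 0.28 with overlapping arrays. Of 16 targets of ATF4 and CHOP, 2 had day 3 arrays above all sham arrays and 1 below. Vldlr had 9.83, 9.79 and 9.84 at day 3, against 9.41, 9.64 and 9.39 in sham, while Chac1 differed by 0.53 with overlapping arrays.

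Hspa5, Hsp90b1 and Herpud1 are known for the ER stress element, read by ATF6 and XBP1, in their promoters. These are shown because in all 3 genes every day 3 array lay above every sham array. They are given as RefSeq gives them on GRCm38.p6, from 250 bases before to 50 after the start of the gene, 5′ to 3′ along the gene, with matches in capitals. The element was searched on both strands as CCAAT, then 9 bases of any kind, then CCACG, and its second form as ATTGG, then 1 base of any kind, then CCACG, so that both end in the same letters. The first was found in 0.119% of 32851 promoters and in 10 of the 61 promoters of the listed genes of folding, degradation, sensing and ATF4 targets. The second was found in 0.0365% of promoters and in 2 of those 61, Herpud1 and Dnajb11. Herpud1 lies on the forward strand of chr8:94386179-94386478, Hspa5 on the forward strand of chr2:34771840-34772139, and Hsp90b1 on the reverse strand of chr10:86705395-86705694. A match is a description of the letters only, and no binding was measured. The 10 genes with the first form did not all differ alike: Dnajc3 differed by 0.34, Syvn1 by 0.19, Canx by 0.06 and Derl3 by −0.46.
Herpud1: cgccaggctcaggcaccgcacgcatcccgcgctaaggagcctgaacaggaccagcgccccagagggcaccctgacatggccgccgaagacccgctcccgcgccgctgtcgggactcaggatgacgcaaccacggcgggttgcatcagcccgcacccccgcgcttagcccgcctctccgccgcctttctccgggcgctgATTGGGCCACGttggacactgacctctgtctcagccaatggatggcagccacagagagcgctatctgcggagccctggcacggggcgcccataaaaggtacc
Hspa5: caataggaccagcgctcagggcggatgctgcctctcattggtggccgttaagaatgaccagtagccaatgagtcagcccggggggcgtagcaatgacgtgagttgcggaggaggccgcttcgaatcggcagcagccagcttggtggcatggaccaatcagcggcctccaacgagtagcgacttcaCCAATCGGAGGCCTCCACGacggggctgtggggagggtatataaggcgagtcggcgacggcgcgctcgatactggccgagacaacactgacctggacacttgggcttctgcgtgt
Hsp90b1: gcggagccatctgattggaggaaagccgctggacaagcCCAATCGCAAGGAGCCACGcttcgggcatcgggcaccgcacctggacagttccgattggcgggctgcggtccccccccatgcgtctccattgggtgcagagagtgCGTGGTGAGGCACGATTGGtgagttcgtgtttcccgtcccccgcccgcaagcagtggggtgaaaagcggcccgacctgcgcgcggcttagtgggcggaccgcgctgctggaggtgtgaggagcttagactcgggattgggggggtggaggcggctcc

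Genes induced by glucocorticoids were higher for 18 of 25, and 6 had day 3 arrays above all sham arrays. Their median was 0.21 with replicate 3 and 0.00 without it, and without it 6 of 25 lay above all sham arrays (12.9% of all genes) and 5 below (11.4%). The metallothioneins Mt1 and Mt2 bind zinc and copper and are induced by metals, oxidants and glucocorticoids. Mt1 had 10.91, 11.11 and 11.16 at day 3, against 10.69, 10.73 and 10.63 in sham, a difference of 0.37 ± 0.08 (SE, adjusted p = 0.22). Mt2 had 11.63, 11.82 and 11.82 at day 3, against 11.18, 11.23 and 11.23 in sham, a difference of 0.54. Both metallothioneins lay above sham in every day 3 array. Slc39a14, a zinc importer, differed by 0.41. Klf15, a glucocorticoid-induced regulator of fuel use in heart, had 7.95, 8.12 and 7.83 at day 3, against 7.49, 7.56 and 7.43 in sham. Glul, glutamine synthetase, differed by 0.21 and Lpin1, a phosphatidate phosphatase, by 0.22. Zbtb16 had a wide spread, with 9.20, 9.73 and 9.88 at day 3 and 8.79, 9.42 and 8.13 in sham. Of 32 metallothionein and NRF2 genes as a whole, 15 were higher and the median was −0.02, and Txn1, thioredoxin, was lower by a small margin, with 11.29, 11.34 and 11.31 at day 3 and 11.44, 11.40 and 11.45 in sham.

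The promoters of the metallothionein pair carry copies of the metal response element, searched as TGCGCNC and TGCACNC on both strands, with 3 matches in Mt1 and 4 in Mt2. At least 1 match was found in 25.7% of all promoters and at least 3 in 1.97%. Mt1 is given from the forward strand of chr8:94178839-94179138 and Mt2 from the forward strand of chr8:94172368-94172667 (GRCm38.p6), with matches in capitals.
Mt1: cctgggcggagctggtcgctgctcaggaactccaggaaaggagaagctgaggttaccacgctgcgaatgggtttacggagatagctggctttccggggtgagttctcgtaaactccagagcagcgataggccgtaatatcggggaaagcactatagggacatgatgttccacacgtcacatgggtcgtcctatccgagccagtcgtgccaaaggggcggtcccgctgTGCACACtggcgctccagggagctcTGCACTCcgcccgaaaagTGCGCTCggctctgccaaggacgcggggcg
Mt2: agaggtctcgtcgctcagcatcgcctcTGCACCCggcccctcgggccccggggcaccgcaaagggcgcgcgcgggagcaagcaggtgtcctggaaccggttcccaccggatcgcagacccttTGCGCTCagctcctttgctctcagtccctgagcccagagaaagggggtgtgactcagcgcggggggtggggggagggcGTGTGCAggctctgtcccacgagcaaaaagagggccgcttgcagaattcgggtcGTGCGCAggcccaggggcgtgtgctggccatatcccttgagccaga

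The main ubiquitin ligases of muscle wasting were both higher at day 3. Fbxo32, atrogin-1, had 9.14, 9.17 and 9.45 at day 3, against 8.77, 8.73 and 9.02 in sham, a difference of 0.42 ± 0.11 (SE). Trim63, MuRF1, had 9.33, 9.41 and 9.14 at day 3, against 9.05, 8.92 and 9.00 in sham, a difference of 0.30 ± 0.09 (SE). Both adjusted p-values, 0.295 and 0.353, missed the threshold, and the arrays did not overlap. Of 19 genes of muscle atrophy and FOXO action, 15 were higher and 3 had day 3 arrays above all sham arrays, where 8.0% of all genes did. Without replicate 3, 13 of the 19 were higher and 3 lay above all sham arrays, where 12.9% of all genes did. The median was 0.23 with replicate 3 and 0.13 without it. In contrast, 31 of 37 proteasome subunits were lower at day 3, with a median of −0.10, and 6 had day 3 arrays below all sham arrays where 4.39% of all genes did. Psmb6, a catalytic subunit of the core, had 9.48, 9.53 and 9.60 at day 3, against 9.76, 9.87 and 9.84 in sham, a difference of −0.29 ± 0.07 (SE, adjusted p = 0.266). Psma7, of the outer ring, differed by −0.24 and Psmd8, of the cap, by −0.15. Without replicate 3 the median of the list was −0.08 and 7 members lay below all sham arrays, against 11.4% of all genes. The medians of this list from sham on days 1, 5, 12 and 26 were −0.04, −0.19, −0.15 and −0.17. The lysosomal protease Ctsl had 10.24, 10.25 and 10.54 at day 3, against 9.93, 9.96 and 10.04 in sham. Among 40 autophagy and lysosome genes 6 lay above and 3 below all sham arrays, against 8.0% and 4.39% of all genes. Without replicate 3 these counts were 7 and 6, against 12.9% and 11.4% of all genes. Atg4a, which processes autophagosome proteins, differed by −0.66.

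Small heat shock proteins, which hold sarcomere proteins in a foldable state, were lower for 7 of 7 measured, with a median of −0.08. Hspb3 had 6.77, 6.67 and 6.07 at day 3, against 7.26, 6.83 and 7.13 in sham, and Hspb2 had 8.48, 8.65 and 8.12 at day 3 and 8.82, 8.72 and 8.70 in sham. Replicate 3 was the lowest array for both, and without it 3 of the 7 were higher and the median was −0.02. The abundant members Cryab and Hspb7 differed by −0.02 and −0.08 with overlapping arrays. Of 29 cytosolic heat shock proteins, 16 were higher and 1 did not overlap.

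Targets of p53 held 6 of 30 with day 3 arrays above all sham arrays and 1 below, against 8.0% and 4.39% of all genes. Without replicate 3 these counts were 7 and 4, against 12.9% and 11.4% of all genes. The median of the list was 0.02 with replicate 3 and 0.04 without it. Mdm4, an inhibitor of p53, had 6.66, 6.81 and 6.97 at day 3, against 6.10, 6.39 and 6.39 in sham, a difference of 0.52 ± 0.13 (SE). Trp53inp1, a stress target that links p53 to autophagy, had 7.75, 7.54 and 8.43 at day 3, against 7.04, 7.13 and 7.11 in sham. Eda2r had 5.46, 4.98 and 5.61 at day 3 and 4.80, 4.78 and 4.84 in sham. Its sham arrays and its day 3 replicate 2 lay below the filter of 5.00, so these are low signals. In all 3 genes every day 3 array lay above sham, and replicate 3 was the highest. Phlda3, an inhibitor of Akt, differed by 0.23, whereas Mdm2 and Ccng1, a pair of classical targets, differed by −0.00 and −0.03. Cdkn1a and Bax were not tested under the rule for 1 symbol and the filter. Ercc5, the nuclease of nucleotide excision repair, had 7.05, 6.85 and 6.98 at day 3, against 6.74, 6.66 and 6.64 in sham, and Ercc6 differed by 0.44, while Parp2, which signals strand breaks, differed by −0.21. Of 25 genes of damage sensing and double-strand break repair, 3 lay above and 1 below all sham arrays, at shares near those of all genes.

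Bak1, which opens the mitochondrial outer membrane in apoptosis, had the smallest p among the lower genes. It had 6.70, 6.57 and 6.41 at day 3, against 7.04, 7.01 and 7.08 in sham, a difference of −0.48 ± 0.10 (SE, adjusted p = 0.22). Mcl1, which restrains Bak1, had 9.10, 9.18 and 9.43 at day 3, against 8.97, 8.87 and 9.01 in sham. Over 30 Bcl2 family and caspase genes, 4 lay above and 1 below all sham arrays, against 8.0% and 4.39% of all genes. Without replicate 3 these counts were 5 and 4, against 12.9% and 11.4% of all genes. Cell cycle and replication genes, which mark dividing cells, were lower for 19 of 28, and 3 lay below all sham arrays: Mki67, Mcm2 and Cdc20. Without replicate 3, 13 of the 28 were higher and 7 lay below all sham arrays, against 11.4% of all genes. Mki67 had 4.38, 4.16 and 4.74 at day 3, against 5.39, 4.95 and 5.79 in sham, which are low signals near the filter. Slbp, which binds the stem loop of histone messages in dividing cells, had 5.91, 6.00 and 5.89 at day 3, against 6.34, 6.41 and 6.34 in sham. Mybl2, an activator of cell cycle genes, differed by −0.57.

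The other leading lower genes had adjusted p-values between 0.222 and 0.301 and day 3 arrays below all sham arrays. Glrx, glutaredoxin, which removes glutathione from proteins, had 7.78, 7.88 and 7.63 at day 3, against 8.30, 8.22 and 8.68 in sham. Fgf16, a growth factor made by cardiomyocytes, had 7.29, 7.62 and 7.18 at day 3, against 7.99, 7.92 and 8.29 in sham. Selenow, a small selenoprotein of muscle, had 8.87, 9.02 and 8.81 at day 3, against 9.48, 9.41 and 9.17 in sham. Capza1, which caps actin filaments at the Z-disc, differed by −0.41, Rab35 by −0.38, Pgam5, a mitochondrial phosphatase, by −0.33, Ripor2 by −0.45 and Fhl3 by −0.58. Zfp991, Cfap126 and Efhd1 had differences of −0.57, −0.59 and −0.50. Among 246 zinc finger genes with Zfp symbols, 27 lay above all sham arrays and 6, Zfp991 among them, below, against 8.0% and 4.39% of all genes. Of the 246, 147 were higher and 99 lower, with a median of 0.04. Without replicate 3, 161 were higher, with a median of 0.07. Then 52 lay above and 10 below all sham arrays, against 12.9% and 11.4% of all genes.

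The contractile apparatus itself differed little. Of 33 sarcomere and Z-disc genes none lay above and 1 lay below all sham arrays, with a median of −0.02, and the median of 15 cardiomyocyte markers was −0.00. Of 27 calcium handling genes, 2 lay above and 2 below. Cacna1c, the pore of the L-type calcium channel, had 10.03, 9.82 and 9.93 at day 3, against 9.27, 9.68 and 9.65 in sham, a difference of 0.39 ± 0.12 (SE, adjusted p = 0.353). Ryr2, the calcium release channel, had 11.28, 11.11 and 11.34 at day 3 and 10.85, 11.12 and 11.03 in sham. The day 3 arrays of Cacna1c lay above sham, while those of Ryr2 overlapped it. Hrc, which buffers calcium in the sarcoplasmic reticulum, differed by 0.18. Of 22 potassium channel genes 2 lay above and 1 below: Kcnj2, the main inward rectifier of the ventricle, differed by 0.27, and Kcnj8 differed by −0.58. Kcnj8 is also a marker of pericytes, and the part of those cells in its difference was not tested. Slc4a3, an anion exchanger, had 9.35, 9.25 and 9.13 at day 3, against 8.90, 9.09 and 8.84 in sham, and Car14, a carbonic anhydrase of the cell surface, differed by −0.19.

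Transcription factors of the heart did not lean one way, with 5 of 36 above and 5 below all sham arrays. Gata6 had 9.47, 9.46 and 9.42 at day 3, against 9.20, 9.22 and 9.28 in sham. Hand2, a factor of ventricle formation, differed by 0.37. Irx3, which patterns conduction genes in the ventricle, was lower, with 7.20, 7.17 and 6.85 at day 3 and 7.25, 7.34 and 7.58 in sham. Irx5, which represses potassium channel genes in the inner wall, differed by −0.39 with arrays that overlapped through replicate 3. Of 12 core clock genes 9 were higher, and none lay above all sham arrays. Per2 had 6.07, 6.35 and 6.58 at day 3 and 5.63, 6.25 and 5.63 in sham, with an overlap. The hour of day at which hearts were taken is not given in the labels, and its part in these values was not tested. Of 28 immediate early genes 24 were higher and 2 did not overlap, with a median of 0.14. Without replicate 3, 16 of them were higher and the median was 0.04. Fos had 7.88, 8.06 and 9.00 at day 3 and 7.97, 7.36 and 8.83 in sham, so its arrays differed more within groups than between them.

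Immune and stromal genes depended on replicate 3. Interferon-stimulated genes were lower for 19 of 24, with a median of −0.22, and 1 lay below all sham arrays. Without replicate 3 the median was −0.46 and 17 of the 24 lay below all sham arrays, where 11.4% of all genes did. Irf7, the regulator of interferon production, had 5.55, 5.44 and 5.87 at day 3, against 6.15, 5.83 and 6.27 in sham. Complement and class II genes had a median of −0.13 with replicate 3 and −0.72 without it, and H2-Ab1, which presents antigen on macrophages and dendritic cells, had 6.39, 6.46 and 7.89 at day 3, against 7.63, 7.51 and 7.30 in sham. Extracellular matrix genes had medians of 0.09 and −0.22. Fibroblast markers had 0.13 and −0.26, and mesothelial markers 0.28 and −0.39, so the sign of these 3 lists was set by 1 array. Endothelial markers had −0.14 and −0.42 and macrophage markers −0.11 and −0.53. The interferon, complement and matrix lists were higher in replicate 3 than in replicates 1 and 2, as were the markers of these cells, whose part in those lists was not tested. The list of STAT3 and acute phase genes was higher for 15 of 17, with a median of 0.31 with replicate 3 and 0.08 without it. Stat3, the transducer of interleukin-6 signals, had 9.12, 9.21 and 9.43 at day 3, against 8.90, 8.98 and 8.87 in sham, and Serpina3n had 7.69, 8.31 and 8.91 at day 3 and 7.76, 7.33 and 6.91 in sham.

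Cxcl9 and Aplnr were singled out after their values were seen. Cxcl9 had the lowest difference of the 12102 genes. It encodes a chemokine induced by interferon gamma and had 4.46, 4.58 and 5.08 at day 3, against 5.77, 5.86 and 5.80 in sham, a difference of −1.10 ± 0.30 (SE, adjusted p = 0.317). Day 3 replicates 1 and 2 of Cxcl9 lay below the filter of 5.00, so this difference rests on low signals. Aplnr, the apelin receptor, had 5.08, 5.18 and 5.35 at day 3, against 5.69, 5.87 and 6.92 in sham. In Cxcl9 and Aplnr alike, replicates 1 and 2, which had the lower endothelial and macrophage markers, lay lower than replicate 3. Replicate 3, with these markers above every sham array, also lay below every sham array in both genes. The part of other cells in these differences was not tested.

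**Figure D4:**
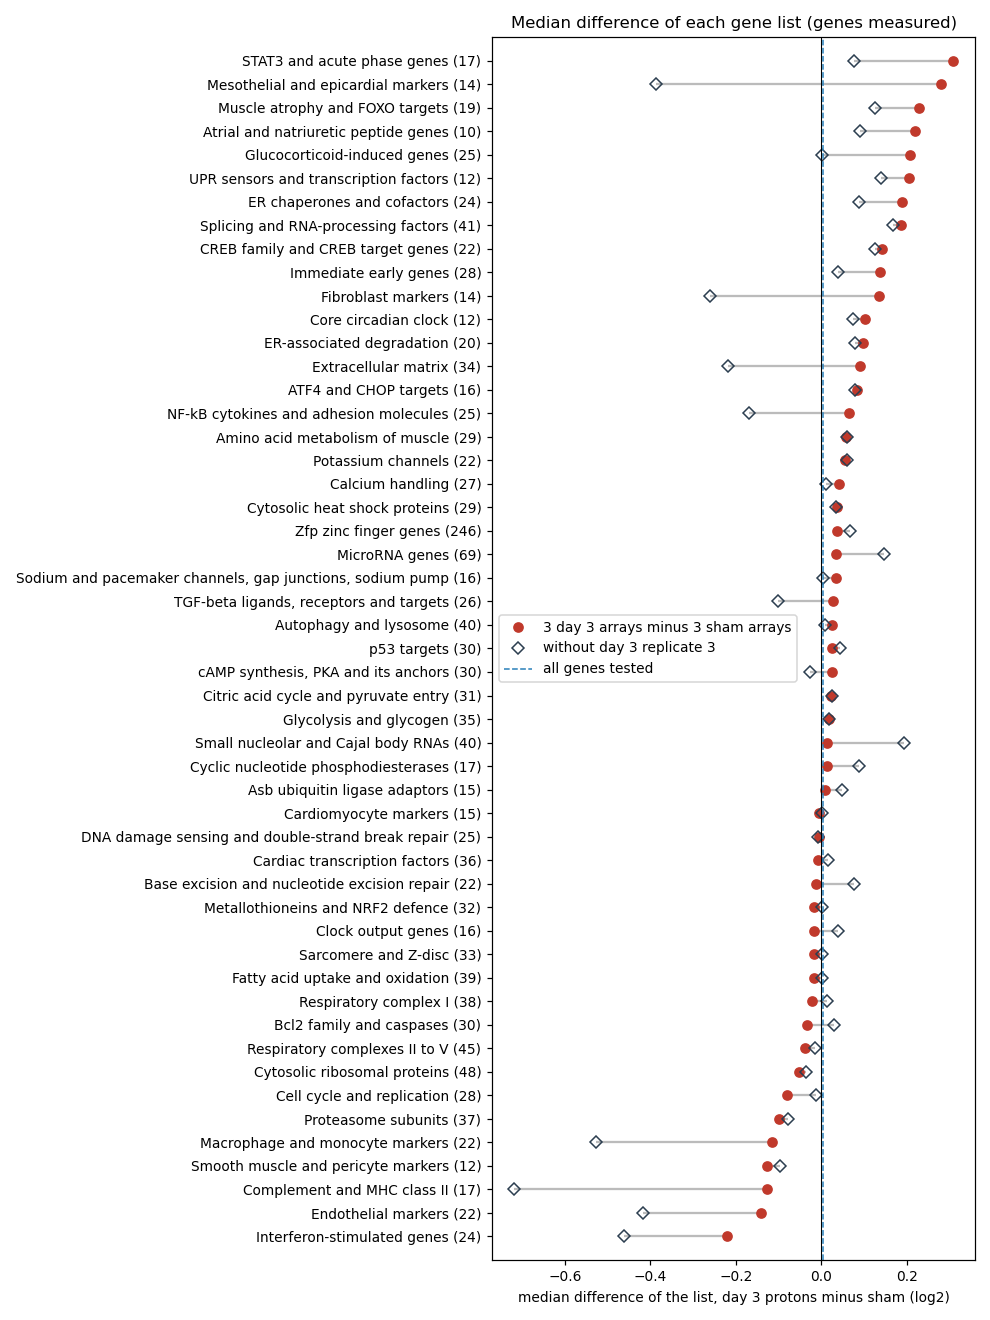
Median difference, day 3 minus sham on the log2 scale, of each gene list with 10 or more genes measured (number in brackets), with all 3 day 3 arrays as red dots and without replicate 3 as open diamonds. Splicing genes stay at 0.19 and 0.17, while mesothelial markers pass from 0.28 to −0.39 when replicate 3 is left out.

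The second comparison set day 3 against the mean of the other proton days, which asks whether day 3 differed from the rest of the course. No gene passed an adjusted p of 0.05 in the limma fit, 788 genes were higher at an unadjusted p under 0.05 (6.51%) and 552 were lower (4.56%). This comparison shares the day 3 arrays with the first. Ctnnal1 and Pde7a had the smallest p, each with an adjusted p of 0.0528. Ctnnal1 was higher by 0.82 ± 0.09 (SE), and its differences from sham on days 1, 3, 5, 12 and 26 were 0.29, 0.76, −0.11, −0.07 and −0.35. Pde7a was higher than on the other days by 0.48, with 0.72 above sham at day 26 as given above. Phka1 was higher by 0.70, Pfkfb2 by 0.52, and Ppargc1a by 0.49, and their differences from sham at days 5, 12 and 26 lay between −0.36 and 0.15. The other leading higher genes were Zkscan3, Tmem116, Adam22, the linker histone H1f2 and Pdlim5, a Z-disc scaffold that was higher by 0.25. The splicing list had a median of 0.15 against the other days, with medians from sham of 0.00, 0.19, 0.08, 0.08 and 0.12 on days 1, 3, 5, 12 and 26.

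Several genes were lower at day 3 than on the other proton days. Scarna13, a Cajal body RNA, differed from the other days by −0.81, although at day 3 it lay above the sham mean by 0.53. Cd8b1 and Cd8a, the chains of the T cell coreceptor, differed from the other days by −2.26 and −1.15. Cd8b1 had 4.46, 3.76 and 3.91 at day 3 and 4.38, 4.09 and 4.45 in sham, while its differences from sham were 2.88 at day 5 and 3.10 at day 26. Every one of these day 3 and sham signals lay below the filter of 5.00, so Cd8b1 passed that filter only through other proton days. Its difference of −2.26 therefore rests on the days that brought the gene into the test. The day 3 signal was near that of sham, both low, while days 5 and 26 lay above. Coro1a, an actin regulator of leukocytes, differed by −0.64, Cyba, a subunit of the NADPH oxidase of phagocytes, by −0.65, Cyth4 by −0.72, Hic1 by −0.80 and H2-Ab1 by −1.36. The carboxylesterase Ces1d and the minor spliceosome RNA Rnu12 differed by −0.38 and −0.74. Without replicate 3, 34 genes passed an adjusted p of 0.05 in this comparison, 4 higher and 30 lower. That count depended on how the spread was estimated: with no spread shared between genes it was 0, and with array weights it was 429. The higher ones were Pde7a, Ctnnal1, Tmem116 and Trim7, and the lower ones were led by H2-Ab1, Ptprc and Cyba, which leukocytes express. Small nucleolar RNAs had a median of −0.40 against the other days, and ER chaperones −0.16, whose medians from sham were 0.20, 0.19, 0.27, 0.37 and 0.46 on days 1, 3, 5, 12 and 26.

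**Figure D5:**
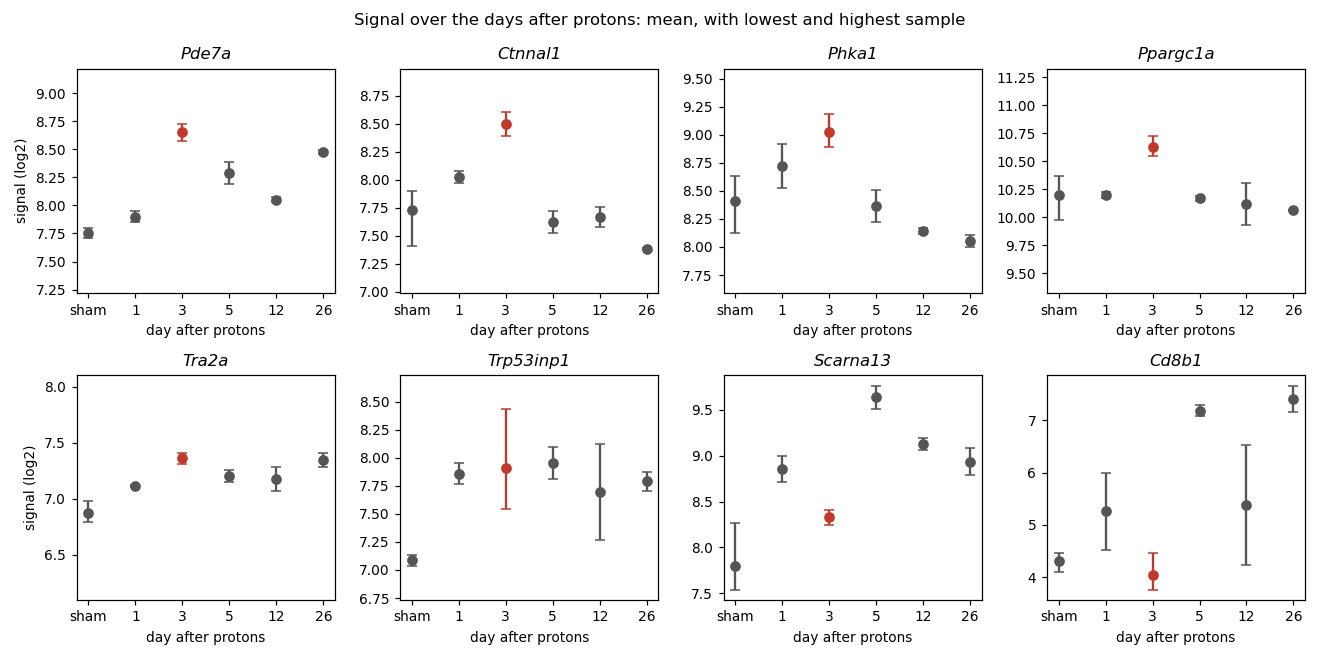
Log2 signal of 8 genes in sham and at days 1, 3, 5, 12 and 26 after protons, as the mean with the lowest and highest sample, with day 3 in red. Ctnnal1, Phka1 and Ppargc1a peak at day 3, and Pde7a stays above sham at every later day shown. Cd8b1 lies near the sham level at day 3, with both below the signal filter.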

How the data were processed

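RNA of isolated left-ventricular cardiomyocytes was hybridised to Affymetrix mouse gene arrays, 1 sample per array. The authors deposited 1 log2 signal per probe set and array; MAS5 is named per the submitters' processing notes, while the scaling between arrays is not given in the sources used here. Array medians ran from 4.90 to 5.16. Of 34760 probe sets, 21640 had 1 gene symbol, 1321 had several and 11799 had none, and 21553 of the first kind were matched to RefSeq (GRCm38.p6). A gene was read from its brightest probe set on average, and was tested if that average exceeded the median over the array design.

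Samples were grouped by their titles; the design text names other days for the later samples, and the titles were followed. Replicates 1 and 2 of proton day 5 differed by an SD of 0.0768, against at least 0.222 for the other pairs of the 105, and were averaged as 1 sample. Differences were tested with limma 3.58.1 (lmFit and eBayes with a variance trend, R 4.3.3, 8 residual degrees of freedom) and Benjamini-Hochberg adjustment, threshold 0.05, and the fit was tested on simulated data. The members and gene lists were chosen with earlier results of these data known. Genes were named by rule: those past the threshold, the 15 smallest p-values in each direction among genes whose arrays did not overlap, the 10 smallest against the other days, members of the gene lists (those with the smallest p first), cell markers, and the 5 genes most like Pde7a. Labels share replicate numbers. Over 20 pairs of same-numbered samples from different groups, the median correlation of their deviations from the group means was 0.035, and 10 exceeded 0.1. In groups of 2 the deviations mirror each other, so these values cannot decide whether the numbers pair the samples. The main fit used no pairing.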

Additional observations from a re-analysis of the deposited data

Results flagged for a closer look

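Probe sets with no gene entry are outside the comparisons above, and a fit over all 34760 probe sets put some of them past the threshold. Of 11799 such probe sets, 34 passed an adjusted p of 0.05 for day 3 minus sham in limma, 33 higher and 1 lower, against 8 of 21640 probe sets with 1 symbol and 0 of 1321 with several (115 of which had an unadjusted p under 0.05). Of the 34, 32 carry IDs that come before the first ID with a gene entry. In that block, 1771 probe sets lay above the signal filter, and 281 of them (15.9%) had day 3 arrays above all sham arrays, against 58 (3.27%) below. What these probe sets measure, and whether they are transcripts or controls of the array, is not given in the sources used here, so their difference cannot be read as a change in RNA. The 8 with 1 symbol were Pde7a, D130007C19Rik, Ifrd1, Tmem88b, Mir504, Ctnnal1, Asb11 and Gm10400.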

How the results depend on the processing

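Pde7a stayed higher at day 3 under every setting tried, by 0.84 to 0.95, and passed the threshold in 24 of 26 fits. It missed it in the fit of only the 6 arrays compared, with an unchanged difference of 0.90, an adjusted p of 0.0688 and 0 genes past the threshold, which has fewer samples to estimate the spread. The labels do not show whether the replicate numbers pair the samples. With the replicate block, on the 12 samples that carry usable numbers, 0 genes passed and Pde7a differed by 0.84 (adjusted p = 0.129). In that fit 6 genes passed against the other proton days. The same samples without the block, a setting chosen after seeing the data, gave 2 and 1. For day 3 minus sham, 3 genes passed after quantile normalization, with probe sets averaged per gene and without the variance trend, 2 with equal array medians, with sham of day 1 only and with no shared spread, 5 with robust variance and with 15 separate arrays, 4 with array weights and with sham of day 3 only, and 112 with the score of other-cell markers in the model. Against the other proton days, 1 passed with no filter, 2 with the filter at the 75th percentile, with robust variance, with 15 arrays and against days 1 and 5 only, 3 with sham of day 1 only or of day 3 only, 17 with array weights and 132 with the score. Leaving out 1 array at a time gave 1 to 2 genes against sham (the second, without the sham of day 3, was Malat1), 0 to 34 against the other days (34 without day 3 replicate 3, 3 without sham day 3, 2 without sham day 1 replicate 2), 1194 to 2013 genes with separated higher arrays and 903 to 1608 with separated lower arrays, where fewer arrays separate more often by construction. Without day 3 replicate 3, 2 settings chosen after seeing the data gave 2 genes against sham and 0 against the other days with no shared spread and, with array weights, 1 against sham and 429 against the other days (1567 separated higher and 1379 lower, as the arrays are the same). Separated arrays numbered 570 higher with equal medians, 944 lower with no filter, 583 higher and 305 lower with the stricter filter, 1542 and 925 with sham of day 1 only, and 3103 and 2587 with the 1 sham array of day 3. Of 3682 values of the 149 named genes under the alternatives, 3603 kept their direction and side of the threshold, 77 passed it where they had not, 2 (Pde7a, above) no longer did and 0 changed sign. Of 1423 list medians, 58 moved by more than the spread between the day 3 arrays. Except where stated, the cause was not tested.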

Other observations

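Cytosolic ribosomal proteins, which build the translating ribosome, were lower at day 3 for 36 of 48 measured, with a median of −0.05 on the log2 scale, and 2 lay below all sham arrays where 4.39% of all genes did. Rpl26 had 8.28, 8.41 and 8.01 at day 3, against 8.72, 8.43 and 8.48 in sham, and Rpl34 had 10.37, 10.45 and 10.40 at day 3, against 10.69, 10.56 and 10.46 in sham. The gaps between the groups in both were narrow, and Rps9 lay above all sham arrays with a difference of 0.20. Of the 48, 12 were higher with replicate 3 of day 3 and 19 without it.

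Genes of atrial muscle and natriuretic peptides were higher for 8 of 10, with a median of 0.22 with replicate 3 and 0.09 without it. Nppa, the atrial natriuretic peptide, had 10.63, 10.47 and 11.30 at day 3, against 10.20, 10.31 and 10.41 in sham, so that it alone of the list had day 3 arrays above all sham arrays, with replicate 3 far above the others. The atrial light chain Myl7 had 6.44, 7.77 and 8.23 at day 3 and 7.20, 5.72 and 6.72 in sham, with arrays that overlapped. NF-kB cytokines and adhesion molecules had a median of 0.06 with replicate 3 and −0.17 without it, and 1 of 25 lay above all sham arrays, Cx3cl1, a chemokine bound to the endothelial surface, with a difference of 0.21. No gene of these 3 lists passed the adjusted limma test, in which 1 of 12102 genes did.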
